A study of Mus musculus with 36 samples.

Results

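The response of primary mouse macrophages to butyrate was taken from 6 of the 36 RNA-seq libraries of the series: 3 libraries of macrophages given 5 mM butyrate for 6 h and 3 of macrophages given the vehicle PBS for the same 6 h, chosen by their labels. Cells were grown out of the femoral bone marrow of male wild-type C57Bl/6 mice for about a week in medium conditioned by L929 fibroblasts, a source of the growth factor CSF1, so they are cultured macrophages without an inflammatory stimulus, and the labels do not say whether the 3 libraries of a group came from separate mice or separate wells. All p-values therefore measure a spread between libraries that may be technical, estimated over all 36 libraries of the series and not from these 6 alone. Further sets of libraries served for comparison, namely the 3 macrophage libraries given 5 mM β-hydroxybutyrate (βOHB, the R form as sodium salt) for 6 h, and the control and butyrate libraries of adipocytes, myotubes and hepatocytes under the same dose and time. The labels give C57Bl/6 for all cell types, and the study's methods name C57BL/6NHsd mice as the source of the hepatocytes. The labels of the butyrate libraries name butyric acid in title and treatment, while their source field also carries the name of βOHB, and title and treatment were followed.

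Butyrate is a short-chain fatty acid made by gut bacteria and an inhibitor of class I histone deacetylases (HDACs), the enzymes that take acetyl groups off histone tails. Macrophages sense microbes through Toll-like receptors (TLRs) and other pattern receptors, engulf particles through Fc, complement and scavenger receptors, and break them down in lysosomes and with the oxidants of the NADPH oxidase. Their identity depends on lineage factors such as PU.1, the product of Spi1, and on signals through the CSF1 receptor.

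The deposited table gave 19449491 to 23180421 estimated counts per control library and 19443371 to 21560442 per butyrate library. Levels are given as CPM, counts relative to library size, after TMM scaling, which sets libraries on a common scale through the bulk of the genes. Levels are not corrected for gene length, and the change of a gene was measured between libraries. Cut-offs, bins by level, and sums and medians over genes set CPM of different genes side by side, so gene length enters them. A gene was called when edgeR's quasi-likelihood test over all 36 libraries gave a Benjamini-Hochberg adjusted p under 0.05 for butyrate minus control, and changes are log2 fold changes. Of the 15340 genes tested, 65.0% were called, 31.9% rose and 33.2% fell with butyrate, 12.7% rose by at least 2-fold and 8.13% fell by at least 2-fold, and these shares are the background for every count that follows. By level in the βOHB libraries, the share lowered grew from 2.99% under 1 CPM to 63.6% at 500 CPM or more. Counts in lists of genes of high level are to be read beside that growth as well. The TMM factors were 1.02 in the controls and 1.18 to 1.20 with butyrate. Scaling by library totals alone shifted the median change of all tested genes from 0 to 0.20 and changed the split to 6685 genes raised and 3339 lowered, so changes of that size turn on the scaling.

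The libraries carried the markers of macrophages. All 16 markers of the list were above 1 CPM in the controls, and their summed level was 24164 to 24323 CPM in the controls and 15255 to 16145 CPM with butyrate, against 392 to 551 CPM in the controls of the other cell types. Of 16 monocyte and neutrophil markers Ly6g and Retnlg had 0 counts in all 6 libraries, and the list summed to 53.6 to 60.3 CPM in the controls and 15.7 to 18.4 CPM with butyrate. The T and NK cell list, in which 4 of 12 markers (Cd3d, Cd3g, Ncr1, Gzma) were at 0, summed to 1.74 to 2.72 CPM in the controls and 4.91 to 5.71 CPM with butyrate. The mast cell and basophil list, with 3 of 7 markers (Fcer1a, Cma1, Tpsb2) at 0, summed to 1.21 to 1.78 CPM and 3.48 to 4.25 CPM. The 8 B cell markers summed to 29.7 to 33.5 CPM in the controls and 16.8 to 18.5 CPM with butyrate, and the 12 erythroid and megakaryocyte markers to 1.21 to 1.65 CPM and 5.13 to 6.05 CPM. Stromal markers such as the collagen gene Col1a1 were present, with 8 of 9 above 1 CPM in the controls and a summed level of 3272 to 3445 CPM in the controls and 2344 to 3105 CPM with butyrate. Of these stromal markers Col1a1 itself was at 1376 to 1109.7 CPM and was not called (adjusted p = 0.073), whereas Pdgfrb fell from 62.8 to 20.3 CPM (-1.63 ± 0.17, adjusted p = 7.3e-10). Of 7 endothelial markers 5 were above 1 CPM, and their sum was 142 to 166 CPM in the controls and 99.4 to 110 CPM with butyrate. Fewer cells of a type and less RNA per cell cannot be told apart in such bulk libraries, and the part of these other cell types in the results was not tested.

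The genes of the linker histones rose together. Linker histones (H1) bind the DNA between nucleosomes and compact chromatin, and most are made from short genes in clusters that are read during DNA replication, whereas H1f0 is read outside it. H1f0, the gene of histone H1.0 (chr15:79028450-79030504 on GRCm38), was at 42.2, 41.6 and 45.6 CPM in the controls and 660.3, 642 and 643 CPM with butyrate. Each butyrate library lay far above the controls (log2 fold change 3.91 ± 0.07 (SE), adjusted p = 1.0e-27). H1f2 (named Hist1h1c in the table, chr13:23738808-23740367) was at 35.3, 36.8 and 35.7 CPM in the controls and 532, 550.4 and 577 CPM with butyrate (log2 fold change 3.94 ± 0.12 (SE), adjusted p = 4.5e-22). The spread among libraries of a group was small beside the change, and the groups lay far apart for both genes.

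The list held 7 linker histone genes and all 7 were called raised, though H1f5 passed the filter on low counts only through butyrate libraries of macrophages and adipocytes, so its call was fixed by the filter. H1f10, which stands outside the clusters, rose from 2.71 to 20.8 CPM (2.94 ± 0.17, adjusted p = 2.2e-15). H1f3 rose from 0.861 to 11.9 CPM (3.78 ± 0.21, adjusted p = 1.1e-15), and H1f4 rose from 0.178 to 5.87 CPM (4.98 ± 0.41, adjusted p = 6.8e-12). H1f1 and H1f5 rested on 3 or fewer counts per control library, so no fold is given: H1f1 was at 0.605 CPM and H1f5 at 1.19 CPM with butyrate, and both were called. The clustered genes resemble each other in sequence, and how the authors' counting divided shared reads among them is uncertain. Their transcripts mostly lack a poly(A) tail, and the library protocol named random priming.

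Histone variants moved less uniformly. Of the 8 tested genes for replacement histones, H3f3b, which makes histone H3.3, rose from 342 to 943 CPM (1.46 ± 0.08, adjusted p = 1.5e-16), while H3f3a, which makes the same protein, was at 455 to 448 CPM (-0.02 ± 0.05, adjusted p = 0.76). H2afz, the gene of the variant H2A.Z, fell from 385 to 229 CPM (-0.75 ± 0.09, adjusted p = 6.9e-09). In the whole list of linker and variant histones 10 of 15 tested members rose and 2 fell, with a median change of 1.46, and 13 rose under scaling by library totals alone. The median over all tested genes was 0.

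The 150 bases before the RefSeq start of the linker histone genes are printed here because the members moved together while the motifs in these windows differ between members. Capitals mark letters found on the strand of the gene, namely AAACACA (the core of the H1 box), CCAAT and TATAAA, each searched on both strands, and coordinates are those of GRCm38.p6.
H1f2 (chr13:23738657-23738806, plus strand): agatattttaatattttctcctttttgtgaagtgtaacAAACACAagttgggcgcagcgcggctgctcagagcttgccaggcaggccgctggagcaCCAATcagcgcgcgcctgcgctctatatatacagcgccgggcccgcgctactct
H1f3 (chr13:23554882-23555031, plus strand): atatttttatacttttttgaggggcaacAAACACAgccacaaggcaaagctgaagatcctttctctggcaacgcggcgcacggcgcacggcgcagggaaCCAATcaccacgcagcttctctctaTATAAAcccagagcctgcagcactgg
H1f4 (chr13:23622559-23622708, minus strand): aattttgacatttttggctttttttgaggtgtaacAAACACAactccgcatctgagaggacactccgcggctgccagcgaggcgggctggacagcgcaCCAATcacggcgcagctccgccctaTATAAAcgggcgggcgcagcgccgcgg
H1f5 (chr13:21780626-21780775, minus strand): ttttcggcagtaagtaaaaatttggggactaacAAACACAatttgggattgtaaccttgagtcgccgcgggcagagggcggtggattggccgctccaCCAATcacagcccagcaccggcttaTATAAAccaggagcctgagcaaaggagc
H1f1 (chr13:23763518-23763667, plus strand): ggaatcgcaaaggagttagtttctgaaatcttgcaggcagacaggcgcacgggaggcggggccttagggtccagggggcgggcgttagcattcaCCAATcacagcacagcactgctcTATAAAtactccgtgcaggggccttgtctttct
H1f0 (chr15:79028062-79028211, plus strand): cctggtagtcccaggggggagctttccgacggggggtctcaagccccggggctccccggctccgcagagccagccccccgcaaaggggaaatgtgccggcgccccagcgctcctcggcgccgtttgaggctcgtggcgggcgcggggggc
H1f10 (chr6:87981483-87981632, minus strand): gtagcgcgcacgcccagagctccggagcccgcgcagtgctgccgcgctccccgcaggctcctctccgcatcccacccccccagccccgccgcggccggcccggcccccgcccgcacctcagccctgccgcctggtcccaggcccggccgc
In H1f2, H1f3, H1f4 and H1f5 the AAACACA match began 112 to 122 bases before the start and the CCAAT match 51 to 54 bases before it, and TATAAA was found in H1f3, H1f4 and H1f5. On the opposite strand, not capitalised, H1f3 held 1 TATAAA and H1f5 held 1 CCAAT. H1f1 held CCAAT and TATAAA. None of the 3 motifs was found in the windows of H1f0 and H1f10, which hold 16 and 20 CpG pairs against 7 to 15 in the others. The GENCODE start of H1f0 given above lies downstream of its RefSeq window and not next to it. The bases between them were not searched, so the absence holds for the printed window only. Of 27025 genes with a window of this length, 1.85% held AAACACA on the strand of the gene (3.50% on either strand), 13.9% held CCAAT (25.3%), 5.26% held TATAAA (8.08%), and 0.292% held both AAACACA and CCAAT on the strand of the gene. These matches describe letters in a window, and the data hold no binding measurement at these sites.

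Deacetylase genes moved both ways. Hdac1, a class I deacetylase, rose from 64.8 to 115 CPM (0.83 ± 0.05, adjusted p = 6.7e-15), and Hdac3, the catalytic subunit of the NCoR complexes, rose from 49.0 to 78.3 CPM (0.68 ± 0.05, adjusted p = 1.3e-13). Hdac2 was at 54.3, 55.5 and 53.4 CPM in the controls and 57.8, 57.1 and 63.7 CPM with butyrate and did not pass the test (adjusted p = 0.094). Of 29 tested class I HDAC and corepressor genes 11 rose and 14 fell, and with library totals alone as scale 15 rose and 8 fell. Members of the NuRD complex, which joins HDACs to chromatin remodelling, were among those that fell: Mbd3 from 63.9 to 24.7 CPM (-1.37 ± 0.07, adjusted p = 7.9e-17), Chd3 from 136 to 60.8 CPM (-1.16 ± 0.07, adjusted p = 2.9e-15) and Mta3 from 41.9 to 19.8 CPM (-1.08 ± 0.06, adjusted p = 1.3e-15). The NuRD remodeller Chd4 rose from 402 to 521 CPM (change 0.37, adjusted p = 9.0e-07), and Rcor2, a partner of the demethylase KDM1A, rose from 1.03 to 5.37 CPM (2.39 ± 0.20, adjusted p = 7.1e-12). Of 14 tested other HDAC and sirtuin genes 5 rose, including Hdac11 and Hdac6, and 5 fell, including Sirt1 from 40.6 to 23.1 CPM (change -0.81), against 8 raised and 4 lowered under that scale.

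Among histone acetyltransferases and the bromodomain proteins that read acetylated histones, 0 of 23 tested members rose and 18 fell, with a median change of -0.41, beside the background of 33.2% lowered. Crebbp, which makes the coactivator CBP, was at 104, 100.5 and 101 CPM in the controls and 34.4, 37.8 and 33.4 CPM with butyrate (log2 fold change -1.53 ± 0.09 (SE), adjusted p = 2.7e-15), and its paralogue Ep300 fell from 228 to 89.3 CPM (-1.35 ± 0.09, adjusted p = 2.5e-14). Brpf3, a scaffold of acetyltransferase complexes, fell from 22.4 to 5.14 CPM (-2.12 ± 0.09, adjusted p = 3.2e-18), and Brd9, a subunit of a SWI/SNF complex, fell from 34.4 to 12.1 CPM (-1.51 ± 0.07, adjusted p = 1.7e-17). Brd3 was at 71.8 to 69.0 CPM and was not called. Under scaling by library totals alone 3 members rose and 13 fell. By level in the βOHB libraries, 44.2% of all tested genes fell from 20 to under 100 CPM and 59.3% from 100 to under 500 CPM. The difference of the list from these was not tested. Kmt5b, which methylates histone H4 at lysine 20 and was among the 12 lowered genes of largest change at 20 CPM or more, was at 48.1, 50.6 and 49.5 CPM in the controls and 6.08, 5.93 and 5.45 CPM with butyrate (log2 fold change -3.08 ± 0.09 (SE), adjusted p = 4.3e-22).

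**Figure D1:**
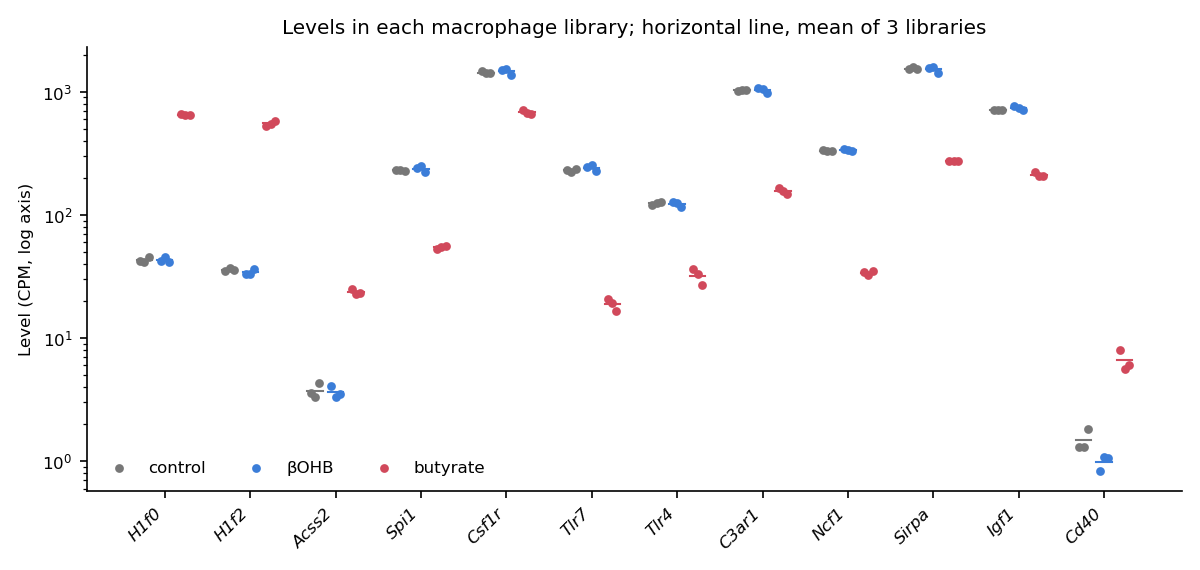
Level of 12 genes in each of the 9 macrophage libraries, in CPM on a log axis, with grey points for control, blue for βOHB and red for butyrate and a line at the mean of each group of 3. H1f0, H1f2, Acss2 and Cd40 lie above the controls in all 3 butyrate libraries and the other 8 genes lie below them.

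Genes that were well measured and moved the most came from several functions. Plat, which makes tissue plasminogen activator, was at 4.24, 4.08 and 3.76 CPM in the controls and 40.7, 47.1 and 43.7 CPM with butyrate (log2 fold change 3.44 ± 0.18 (SE), adjusted p = 1.1e-16). Mt2, which makes a metal-binding metallothionein, rose from 42.1 to 353 CPM (3.07 ± 0.15, adjusted p = 4.7e-17). Fgf11 rose from 1.60 to 28.3 CPM (4.13 ± 0.17, adjusted p = 8.6e-19), Mapk8ip1, a scaffold of the JNK kinases, from 2.26 to 22.1 CPM (3.29 ± 0.12, adjusted p = 9.8e-20), and Rhof, a small GTPase, from 2.86 to 23.4 CPM (3.02 ± 0.11, adjusted p = 1.1e-19). In every one of these genes all 3 butyrate libraries lay above all controls, as the rule for naming them required. Tspyl4, Gprc5c and Ddah2 rose by 3.02, 3.45 and 2.82.

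The lowered genes of largest change included receptors, enzymes and a small GTPase. Il7r, the interleukin 7 receptor, was at 357, 371 and 377 CPM in the controls and 49.7, 48.6 and 42.9 CPM with butyrate (log2 fold change -2.97 ± 0.18 (SE), adjusted p = 4.9e-14). Igsf6, an immunoglobulin family member of myeloid cells, fell from 101 to 15.3 CPM (-2.72 ± 0.15, adjusted p = 6.0e-16). Adra1a and Htr2b, receptors for noradrenaline and serotonin, fell from 58.7 to 7.85 CPM (-2.90 ± 0.13, adjusted p = 2.7e-18) and from 28.0 to 3.66 CPM (-2.93 ± 0.13, adjusted p = 4.3e-18). Arl11, a small GTPase of the Arf-like family, fell from 116 to 12.6 CPM (-3.21 ± 0.14, adjusted p = 2.1e-17), Dio2, the deiodinase that activates thyroid hormone, from 28.8 to 2.59 CPM (-3.47 ± 0.24, adjusted p = 3.1e-13), and Pappa, a protease of insulin-like growth factor binding proteins, from 64.2 to 9.87 CPM (-2.70 ± 0.12, adjusted p = 1.1e-17). Cmtm3 fell by 2.70 on the log2 scale.

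The lineage factor Spi1 was among the regulators that fell. Spi1 was at 229.7, 234 and 228 CPM in the controls and 52.5, 55.2 and 56.1 CPM with butyrate, a narrow band in either group (log2 fold change -2.08 ± 0.17 (SE), adjusted p = 4.9e-12). Zeb2, a repressor that keeps myeloid identity, was at 594, 595 and 593 CPM in the controls and 113, 116 and 105 CPM with butyrate (log2 fold change -2.42 ± 0.08 (SE), adjusted p = 5.8e-21). Tfec, a MiT family factor of macrophages, fell from 19.9 to 4.63 CPM (-2.10 ± 0.14, adjusted p = 2.2e-13), Cebpd from 13.5 to 2.85 CPM (-2.24 ± 0.15, adjusted p = 5.2e-14), and Irf5, an interferon regulatory factor linked to inflammatory macrophages, from 128 to 47.4 CPM (-1.44 ± 0.12, adjusted p = 5.7e-12). The groups did not overlap for any of these genes. Maf fell from 221 to 111 CPM (adjusted p = 5.3e-14), and Runx1 and Cebpa fell by smaller amounts (changes -0.45 and -0.50), while Irf8 and Cebpb were at 122 to 132 CPM and 79.7 to 93.7 CPM and were not called.

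Receptors for growth factors of the lineage moved with these regulators. Csf1r, the CSF1 receptor, was at 1471, 1416 and 1412 CPM in the controls and 713, 677 and 654 CPM with butyrate (log2 fold change -1.07 ± 0.25 (SE), adjusted p = 4.3e-04). Csf3r, the G-CSF receptor, fell from 45.9 to 8.84 CPM (-2.38 ± 0.10, adjusted p = 6.7e-18), and the chains Csf2ra and Csf2rb of the GM-CSF receptor fell by changes of -0.53 and -0.74. Of 25 tested lineage regulators 17 fell and 5 rose, and 18 lay below all controls without overlap beside a background of 37.3%. The members that rose were Irf4, a factor used by dendritic and B cells and by macrophages under interleukin 4, from 0.542 to 6.46 CPM (3.56 ± 0.24, adjusted p = 2.0e-13), the immediate-early genes Egr1 (0.89 ± 0.10, adjusted p = 5.8e-09) and Egr2 (0.66 ± 0.14, adjusted p = 1.5e-04), and Klf2 and Klf4.

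Among the 16 macrophage markers 7 fell and 0 rose, with a median change of -0.51. Of all tested genes 33.2% fell. From 100 to under 500 CPM in the βOHB libraries 59.3% fell (median -0.27), and at 500 CPM or more 63.6% fell (median -0.38). The difference of the markers from genes of like level was not tested. Lyz2, the lysozyme gene, was at 12690.2, 12849 and 12708 CPM in the controls and 8254, 7826 and 8211 CPM with butyrate, and C1qb, a chain of complement C1q, was at 913, 908 and 899 CPM in the controls and 736, 672 and 701 CPM with butyrate. Both groups of 3 lay apart for each of the 2 genes, as for 15 of the 16 markers, but the test over all 36 libraries did not call Lyz2 (log2 fold change -0.65 ± 0.32 (SE), adjusted p = 0.071) or C1qb (log2 fold change -0.37 ± 0.28 (SE), adjusted p = 0.25). In a fit of the 9 macrophage libraries alone 15 of the 16 markers fell, with adjusted p = 6.6e-11 for Lyz2 and 1.3e-06 for C1qb. Cd14, the coreceptor for bacterial lipopolysaccharide, was at 333, 366 and 359 CPM in the controls and 67.8, 68.4 and 75.9 CPM with butyrate (log2 fold change -2.32 ± 0.13 (SE), adjusted p = 2.2e-15). Cx3cr1, the fractalkine receptor, fell from 94.1 to 34.8 CPM (-1.44 ± 0.18, adjusted p = 3.1e-08). Adgre1, which encodes the surface marker F4/80, was at 622 to 504 CPM and was not called.

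A wider view was taken from genes chosen on the βOHB libraries, which are not part of this comparison. A gene was called enriched in a cell type at 10 CPM or more and at least 16 times the level of the other cell types compared, with 1 CPM added, and macrophages were set against adipocytes and hepatocytes. Of 180 macrophage-enriched genes 134 fell (74.4%) and 11 rose (6.11%), and their median level was 143 CPM in the controls and 67.9 CPM with butyrate. Among all tested genes from 100 to under 500 CPM in the βOHB libraries 59.3% fell and 15.2% rose, and the difference of the list from these was not tested. Genes enriched in the other cell types, most of them low in macrophages, were called raised more often than lowered: 270 of 507 myotube-enriched genes (53.3%, with 29 lowered), 103 of 301 adipocyte-enriched genes (34.2%, with 19 lowered) and 167 of 596 hepatocyte-enriched genes (28.0%, with 22 lowered). Among all tested genes under 1 CPM in the βOHB libraries 37.5% rose and 2.99% fell. The raised shares of adipocyte-enriched and hepatocyte-enriched genes lay near or below that of genes of low level at large. The latter share also holds genes that passed the filter on low counts largely through butyrate libraries. Of the adipocyte-enriched genes 6.31% were lowered, and 3.32% to 6.98% with 1 control or butyrate library left out. At 64 in place of 16 times the level 63.6% of the myotube-enriched, 30.1% of the adipocyte-enriched and 15.9% of the hepatocyte-enriched genes rose. Their median levels were 0.340 and 1.02 CPM for myotube-enriched genes in control and butyrate libraries, 0.480 and 0.839 CPM for adipocyte-enriched genes and 0.0718 and 0.152 CPM for hepatocyte-enriched genes. With library totals alone as scale, 62.2% of the macrophage-enriched genes fell and 8.33% rose. Under that scale 38.9% of all tested genes from 100 to under 500 CPM fell and 30.9% rose.

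The myotube signal differed among the butyrate libraries. All 7 myotube markers rose with a median change of 2.56, and 5 of them lay above all controls. Without the butyrate library numbered 3 the number that rose was 5 and the median 1.50, and without the control library numbered 2 the median was 3.85. Myh3, an embryonic myosin heavy chain, was at 0.0424, 2.17 and 1.04 CPM in the controls and 2.91, 4.37 and 16.1 CPM with butyrate. Acta1, skeletal muscle actin, was at 5.72, 8.01 and 5.58 CPM in the controls and 13.8, 14.3 and 25.1 CPM with butyrate. The butyrate library numbered 3 was the highest for both. The 7 markers summed to 6.95 to 14.4 CPM in the controls and 21.8 to 65.1 CPM with butyrate, against 27499 CPM in myotube controls, and whether reads of another library took part was not tested. Without the library numbered 3, 42.0% of the myotube-enriched genes rose.

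**Figure D2:**
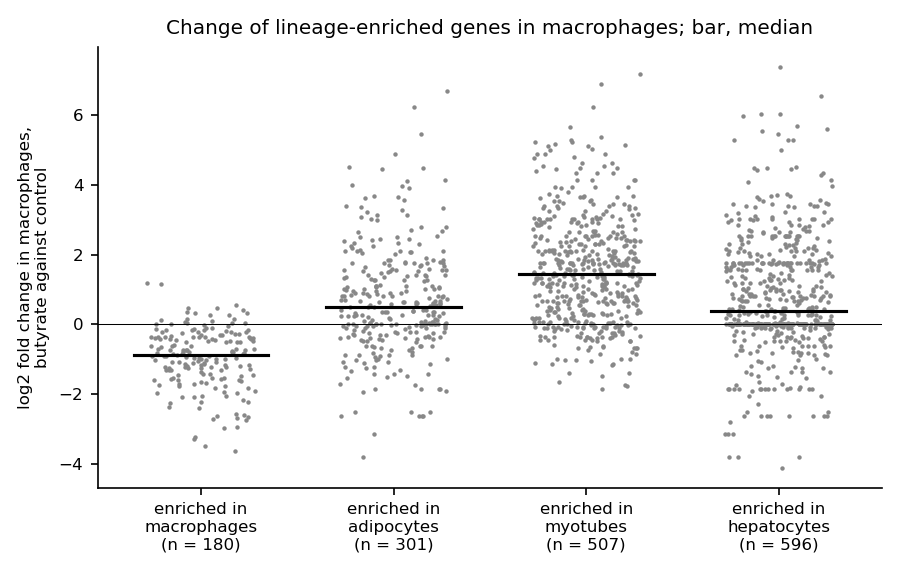
Log2 fold change with butyrate in macrophages of genes enriched in macrophages (180), adipocytes (301), myotubes (507) and hepatocytes (596), a point per gene and a bar at the median. Most macrophage-enriched genes lie below 0 and most myotube-enriched genes above it. Fold changes of genes near 0 counts depend on the fitted prior and are drawn as fitted.

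Receptors that sense microbes fell over a wide range. Of 24 tested Toll-like receptor and adaptor genes 18 fell and 4 rose, with a median change of -0.79. Tlr7, which senses single-stranded RNA in endosomes (chrX:167304929-167330558), was at 232, 224 and 236 CPM in the controls and 20.9, 19.1 and 16.6 CPM with butyrate (log2 fold change -3.61 ± 0.17 (SE), adjusted p = 2.9e-17). Tlr13, which senses bacterial ribosomal RNA, was at 511, 526 and 522 CPM in the controls and 93.3, 86.6 and 75.2 CPM with butyrate (log2 fold change -2.61 ± 0.14 (SE), adjusted p = 3.9e-16), and Tlr8 fell from 221 to 43.3 CPM (-2.35 ± 0.18, adjusted p = 1.7e-12). Tlr4, the lipopolysaccharide receptor, was at 121, 126 and 127 CPM in the controls and 36.2, 32.9 and 27.2 CPM with butyrate (log2 fold change -1.96 ± 0.09 (SE), adjusted p = 9.5e-18). The groups stood apart for all 4 receptors, and the butyrate library numbered 3 was the lowest in each.

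Cd180, a TLR4 relative that restrains it, fell from 232 to 60.3 CPM (-1.94 ± 0.14, adjusted p = 2.1e-13), and Tlr3, Tlr6, Tlr9 and Tlr2 fell by changes of -1.13, -1.39, -0.61 and -0.56. Tlr1 was at 9.43 to 7.97 CPM and was not called. The adaptor Tirap fell from 25.0 to 8.40 CPM (-1.57 ± 0.08, adjusted p = 5.3e-17), Ticam2 from 41.7 to 19.7 CPM (-1.08 ± 0.15, adjusted p = 1.7e-07), and Myd88, the shared adaptor of most TLRs, from 47.6 to 35.0 CPM (-0.45 ± 0.08, adjusted p = 2.3e-05). Those that rose were Tlr5, the flagellin receptor, from 0.426 to 2.70 CPM (2.66 ± 0.27, adjusted p = 5.3e-10), the inhibitory kinase gene Irak3 (0.50 ± 0.08, adjusted p = 5.0e-06), Ticam1 (0.27 ± 0.08, adjusted p = 0.0038) and Traf6 (0.23 ± 0.07, adjusted p = 0.0063).

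In the NF-κB pathway, the route from these receptors to the nucleus, 11 of 21 tested genes fell and 7 rose. Nfkb1 and Ikbkg fell by more than 2-fold: Nfkb1, which makes p105 and p50, was at 92.3, 88.9 and 92.2 CPM in the controls and 43.8, 40.5 and 40.8 CPM with butyrate (log2 fold change -1.13 ± 0.05 (SE), adjusted p = 8.0e-19), and Ikbkg, the regulatory subunit NEMO of the IκB kinase, was at 95.5, 92.4 and 91.8 CPM in the controls and 41.9, 39.6 and 40.7 CPM with butyrate (log2 fold change -1.19 ± 0.06 (SE), adjusted p = 1.9e-17). Rel and Rela fell by changes of -0.88 and -0.80, while the catalytic kinase genes Chuk and Ikbkb rose by 0.18 and 0.25. The inhibitors split, with Nfkbid (-1.60 ± 0.17, adjusted p = 9.5e-10) and Nfkbia (-0.61 ± 0.08, adjusted p = 2.0e-07) lower and Nfkbie (0.73 ± 0.11, adjusted p = 5.4e-07) and Nfkbib (0.46 ± 0.09, adjusted p = 3.2e-05) higher. The median of the list was -0.23 and came to 0.00 with library totals alone as scale.

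Inflammasomes are the complexes that activate caspase 1 and interleukin 1 family cytokines. Nlrp3 was at 21.7, 23.4 and 23.6 CPM in the controls and 6.78, 7.64 and 7.86 CPM with butyrate (log2 fold change -1.62 ± 0.17 (SE), adjusted p = 1.7e-09), and Nlrp1b fell from 14.3 to 4.37 CPM (-1.71 ± 0.15, adjusted p = 4.3e-10). P2rx7, the ATP-gated channel that triggers NLRP3, fell from 67.0 to 25.8 CPM (-1.38 ± 0.10, adjusted p = 3.5e-13), and the pore gene Gsdmd fell from 34.9 to 16.8 CPM (-1.06 ± 0.10, adjusted p = 2.4e-10). Aim2, the DNA sensor, rose from 39.6 to 70.7 CPM (0.83 ± 0.14, adjusted p = 3.1e-06), Il18 from 4.82 to 9.82 CPM (1.03 ± 0.18, adjusted p = 8.1e-06), and Txnip, a thioredoxin-binding protein that follows glucose, from 191 to 358 CPM (0.91 ± 0.08, adjusted p = 5.0e-11). In total, 8 of 15 tested members fell and 3 rose, and without the butyrate library numbered 2 the number that rose was 5. The scale of library totals alone gave 6 lowered and 5 raised.

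Cytokine genes were mostly low in these unstimulated cells. Tnf was at 4.53, 5.95 and 5.23 CPM in the controls and 2.65, 2.73 and 3.30 CPM with butyrate (log2 fold change -0.85 ± 0.20 (SE), adjusted p = 3.4e-04). Il1b was at 0.763, 1.21 and 1.21 CPM in the controls and 0.695, 0.234 and 0.888 CPM with butyrate (log2 fold change -0.81 ± 0.34 (SE), adjusted p = 0.036), with overlapping groups, and Il6 was at 0.246 CPM in the controls and 0.168 CPM with butyrate and was not called. Among the well measured cytokines, Igf1, a growth factor of tissue macrophages, was at 717, 707 and 711 CPM in the controls and 223, 206 and 206 CPM with butyrate (log2 fold change -1.75 ± 0.10 (SE), adjusted p = 9.7e-16). Lif fell from 15.6 to 2.13 CPM (-2.87 ± 0.21, adjusted p = 6.5e-13), Tnfsf12, the TWEAK ligand, from 72.6 to 23.4 CPM (-1.64 ± 0.10, adjusted p = 4.1e-15), and Osm from 10.4 to 5.02 CPM (-1.05 ± 0.20, adjusted p = 4.1e-05). Csf1 was at 433 to 417 CPM and was not called. Of 18 tested cytokines 8 fell and 3 rose, with a median change of -0.32, and with library totals alone as scale 5 fell and 3 rose, with a median of -0.09.

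Receptors for chemokines and complement fragments steer cells to sites of injury and infection. Of the 12 tested members of the chemokine receptor list 10 fell and 0 rose, with a median change of -1.19. Of all 16 members, without a filter on low counts, 10 fell and 2 rose, with a median of -0.61. The raised members were Cxcr2, a receptor of neutrophils that went from 1, 0 and 0 counts to 38, 46 and 32 counts, and Ackr3, both named after their values were seen. For the 12 tested members library totals alone as scale gave 7 lowered and 1 raised. C3ar1, the receptor for complement C3a, was at 1009, 1036 and 1028 CPM in the controls and 166, 157 and 148 CPM with butyrate (log2 fold change -2.70 ± 0.18 (SE), adjusted p = 4.0e-14). Ccr2, the receptor that monocytes follow out of the marrow, fell from 6.43 to 1.42 CPM (-2.18 ± 0.31, adjusted p = 5.5e-07), Cxcr4 from 381 to 161 CPM (-1.24 ± 0.09, adjusted p = 5.1e-13) and C5ar1 from 182 to 83.2 CPM (-1.13 ± 0.14, adjusted p = 5.1e-08). Ccr1 was at 14.2 to 12.9 CPM and was not called. Their ligands did not move one way, since 5 of 17 tested chemokines rose and 6 fell. Ccl9 was at 158, 169 and 173 CPM in the controls and 43.4, 38.5 and 44.1 CPM with butyrate (log2 fold change -1.99 ± 0.18 (SE), adjusted p = 7.3e-11), Ccl4 fell from 13.1 to 2.70 CPM (-2.28 ± 0.25, adjusted p = 2.8e-09) and Cxcl16 from 193 to 82.9 CPM (-1.22 ± 0.14, adjusted p = 1.0e-08). Cx3cl1, the ligand of CX3CR1, rose from 8.15 to 27.6 CPM (1.76 ± 0.12, adjusted p = 3.9e-14), and Ccl2 from 15.2 to 23.4 CPM (0.62 ± 0.26, adjusted p = 0.034). Without the control library numbered 3 the number of chemokines that rose was 3.

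Genes of antibody recognition and their kinases fell more often than they rose, with 16 of 24 tested members lowered and 1 raised (0 raised without the butyrate library numbered 3 or the control library numbered 2), or 11 lowered and 2 raised with library totals alone as scale. Sirpa, the inhibitory receptor for CD47, was at 1519.6, 1578 and 1529 CPM in the controls and 277, 276 and 273 CPM with butyrate (log2 fold change -2.49 ± 0.13 (SE), adjusted p = 3.9e-16). Pirb, an inhibitory receptor of a family with close copies whose reads may be shared, fell from 236 to 50.8 CPM (-2.22 ± 0.13, adjusted p = 1.9e-15). The adaptors Blnk and Lat2 fell from 136 to 40.2 CPM (-1.76 ± 0.12, adjusted p = 1.2e-13) and from 154 to 52.7 CPM (-1.55 ± 0.14, adjusted p = 3.2e-11), the kinases Btk and Syk by changes of -1.24 and -0.83, and the lipid phosphatase Inpp5d from 324 to 122 CPM (-1.41 ± 0.17, adjusted p = 1.1e-08). Among the Fcγ receptors, Fcgr3, Fcgr2b and Fcgr1 fell by changes of -0.97, -0.56 and -0.87, and Fcgr4 was at 16.2 to 12.8 CPM and was not called. The neonatal Fc receptor gene Fcgrt rose by 0.16 (adjusted p = 0.029).

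C-type lectins that bind fungal and bacterial sugars fell in the scavenger and efferocytosis list, in which 14 of 26 tested members fell and 3 rose, or 10 and 6 with library totals alone as scale. Clec4d was at 487, 518 and 516 CPM in the controls and 83.6, 74.3 and 81.5 CPM with butyrate (log2 fold change -2.67 ± 0.11 (SE), adjusted p = 3.2e-19), and Clec7a, the β-glucan receptor Dectin-1, was at 154, 155 and 152 CPM in the controls and 42.4, 39.5 and 35.9 CPM with butyrate (log2 fold change -1.97 ± 0.18 (SE), adjusted p = 7.2e-11). Clec4n fell from 17.5 to 3.56 CPM (-2.30 ± 0.26, adjusted p = 5.3e-09), with the reservation that the Clec4 genes are related in sequence. Stab1, Trem2, Msr1 and Cd36 fell by changes of -1.01, -0.90, -0.81 and -0.62. Mrc1, the mannose receptor, was at 125, 137 and 124 CPM in the controls and 111, 111 and 96.5 CPM with butyrate, without overlap but by a small amount (log2 fold change -0.28 ± 0.12 (SE), adjusted p = 0.041). Scarb1, Itgb3 and Trem1 rose by 0.57, 0.75 and 1.15. The efferocytosis receptor Axl and its ligand Gas6 were at 251 to 204 CPM and 337 to 362 CPM and were not called.

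The phagocyte NADPH oxidase, which makes superoxide, fell in most of its parts. Ncf1, which makes the cytosolic organiser p47phox (chr5:134220053-134229625), was at 334, 328 and 330.1 CPM in the controls and 34.2, 32.7 and 35.0 CPM with butyrate (log2 fold change -3.28 ± 0.15 (SE), adjusted p = 1.5e-17). The groups lay far apart and each was tight. Ncf4 fell from 67.3 to 23.2 CPM (-1.54 ± 0.17, adjusted p = 7.3e-09), and the catalytic subunit Cybb was at 647, 683 and 641 CPM in the controls and 333, 324 and 291 CPM with butyrate (log2 fold change -1.05 ± 0.23 (SE), adjusted p = 1.6e-04). Hvcn1, the proton channel that balances the charge of the oxidase, fell from 147 to 43.1 CPM (-1.77 ± 0.12, adjusted p = 1.0e-13). Cyba and Rac1 fell by changes of -0.55 and -0.31, and Rac2 was at 148 to 149.7 CPM. In total, 7 of 8 tested members fell and 0 rose, beside the background of 33.2%, and with library totals alone as scale 5 fell. Among all tested genes from 100 to under 500 CPM in the βOHB libraries 59.3% fell, and 63.6% at 500 CPM or more. With library totals alone as scale those shares were 38.9% and 40.4%. The difference of the list from these was not tested.

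Complement and antimicrobial genes showed fewer calls. Of 16 tested complement genes 4 fell, among them Cfp, the properdin gene, from 62.3 to 43.4 CPM (-0.52 ± 0.17, adjusted p = 0.0073) and Itgb2, and Cd55 rose. In the fit of the 9 macrophage libraries alone 9 fell and 3 rose, and with library totals alone as scale 2 fell and 1 rose. Of 13 tested antimicrobial genes 4 fell and Nos2 was called raised, though its counts were 0 in all controls and at most 0.254 CPM with butyrate, near the floor of 3 counts per library, and no fold is given. Lgals3, galectin 3, was at 3552, 3619.5 and 3747 CPM in the controls and 1436, 1299 and 1433 CPM with butyrate (log2 fold change -1.39 ± 0.12 (SE), adjusted p = 4.0e-11), and Slc11a1, a metal transporter of phagosomes, fell from 191 to 108 CPM (-0.83 ± 0.12, adjusted p = 3.9e-07). The fit of the 9 macrophage libraries called 7 antimicrobial genes lowered, and library totals alone as scale gave 3 lowered and 2 raised. Without the butyrate or the control library numbered 2 the number raised was 2.

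Lysosomal genes fell by modest amounts, with 33 of 42 tested members lowered and 2 raised and a median change of -0.46. Ctsd, cathepsin D, fell from 16929 to 10832 CPM (-0.64 ± 0.09, adjusted p = 4.2e-07), and Psap and Lipa fell by changes of -0.70 and -0.82. Atp6v0d2, a proton pump subunit of myeloid cells, had the largest decrease in the list and was at 246, 268 and 266 CPM in the controls and 58.5, 58.9 and 52.1 CPM with butyrate (log2 fold change -2.20 ± 0.12 (SE), adjusted p = 9.9e-16). Tfeb and Tfe3, regulators of lysosomal genes, fell from 35.2 to 17.6 CPM (adjusted p = 5.2e-10) and from 126 to 78.3 CPM (-0.69 ± 0.07, adjusted p = 2.2e-09). The exceptions were Neu1, a sialidase, at 106, 107 and 108 CPM in the controls and 246, 237 and 254 CPM with butyrate (log2 fold change 1.20 ± 0.06 (SE), adjusted p = 2.7e-16), and Ppt1 (0.50 ± 0.06, adjusted p = 5.0e-09). The scale of library totals alone gave 25 lowered and 5 raised.

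In the list of MHC class II presentation and costimulation genes 8 of 15 tested members rose and 0 fell. In the fit of the 9 macrophage libraries alone 9 rose and 2 fell (Ctss, cathepsin S, and Cd80), and 3 members (Ctss, Cd80 and Ciita) lay below all controls without overlap. H2-DMa, a chain of the peptide loader H2-M, was at 9.75, 8.67 and 10.2 CPM in the controls and 26.5, 24.5 and 23.6 CPM with butyrate (log2 fold change 1.38 ± 0.13 (SE), adjusted p = 5.9e-11). The class II chain gene H2-Ab1 was at 4.45, 4.18 and 4.54 CPM in the controls and 12.3, 11.0 and 12.7 CPM with butyrate (log2 fold change 1.45 ± 0.37 (SE), adjusted p = 0.001), low but apart in the groups. Cd40, the receptor for help from T cells, was at 1.31, 1.31 and 1.82 CPM in the controls and 8.04, 5.61 and 6.09 CPM with butyrate (log2 fold change 2.14 ± 0.21 (SE), adjusted p = 2.2e-10). The costimulatory ligands Cd86 and Icosl rose from 20.2 to 41.0 CPM (1.02 ± 0.18, adjusted p = 1.5e-05) and from 6.41 to 15.8 CPM (1.30 ± 0.16, adjusted p = 3.1e-08). Ciita, the master regulator of class II genes, was at 1.23, 1.11 and 1.47 CPM in the controls and 0.826, 1.05 and 0.761 CPM with butyrate and was not called (adjusted p = 0.26), and neither were H2-Aa (5.54 to 7.08 CPM) or Cd74 (31.3 to 33.9 CPM).

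Class I genes divided. Of 18 tested members 3 rose and 4 fell, and the chains H2-K1 and H2-D1 were at 264 to 279.9 CPM and 936 to 875 CPM and were not called. The peptide transporter genes Tap1 and Tap2 rose from 21.3 to 38.4 CPM (0.85 ± 0.17, adjusted p = 6.2e-05) and from 30.8 to 39.4 CPM (0.35 ± 0.09, adjusted p = 9.4e-04), whereas the immunoproteasome subunit Psmb10 fell from 19.4 to 5.00 CPM (-1.96 ± 0.15, adjusted p = 9.1e-13) and the peptide editor Tapbpl from 12.5 to 3.24 CPM (-1.96 ± 0.14, adjusted p = 1.5e-13). The median of the list, -0.05, became 0.18 with library totals alone as scale, where 7 rose and 3 fell.

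Interferon response genes also divided, with 10 of 40 tested members raised and 9 lowered. Rsad2, the antiviral enzyme viperin, was at 3.64, 5.09 and 5.84 CPM in the controls and 35.8, 29.3 and 31.7 CPM with butyrate (log2 fold change 2.73 ± 0.62 (SE), adjusted p = 2.9e-04). Usp18, which removes ISG15, rose from 1.62 to 6.36 CPM (1.97 ± 0.50, adjusted p = 9.9e-04), and the RNA sensors Dhx58 and Ddx58 rose from 8.87 to 21.7 CPM (1.29 ± 0.24, adjusted p = 2.5e-05) and from 24.8 to 43.6 CPM (0.82 ± 0.22, adjusted p = 0.0018). Stat2 rose from 31.9 to 66.8 CPM and its partner Irf9 fell from 31.5 to 16.4 CPM (changes 1.06 and -0.94, adjusted p = 1.2e-05 and 5.2e-06). Oas1a and Irgm1 fell by changes of -0.93 and -1.04. In the fit of the 9 macrophage libraries 20 rose and 14 fell.

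Of 14 tested genes of alternative activation, the state driven by interleukin 4, 3 rose and 5 fell. Stat6, which carries that signal, was at 212, 221 and 212 CPM in the controls and 104, 109 and 99.9 CPM with butyrate (log2 fold change -1.05 ± 0.07 (SE), adjusted p = 1.5e-13), Pparg fell from 34.3 to 21.3 CPM (-0.69 ± 0.08, adjusted p = 3.2e-09) and Myc from 22.5 to 10.7 CPM (-1.06 ± 0.11, adjusted p = 7.1e-10). The lectin gene Clec10a rose from 0.590 to 2.44 CPM (2.04 ± 0.35, adjusted p = 1.7e-05), and Mgl2, its neighbour in sequence, was listed at 0 counts in the controls and at 0.138 CPM with butyrate. With library totals alone as scale the median of the list changed sign, from -0.20 to 0.02, and 5 rose and 3 fell.

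**Figure D3:**
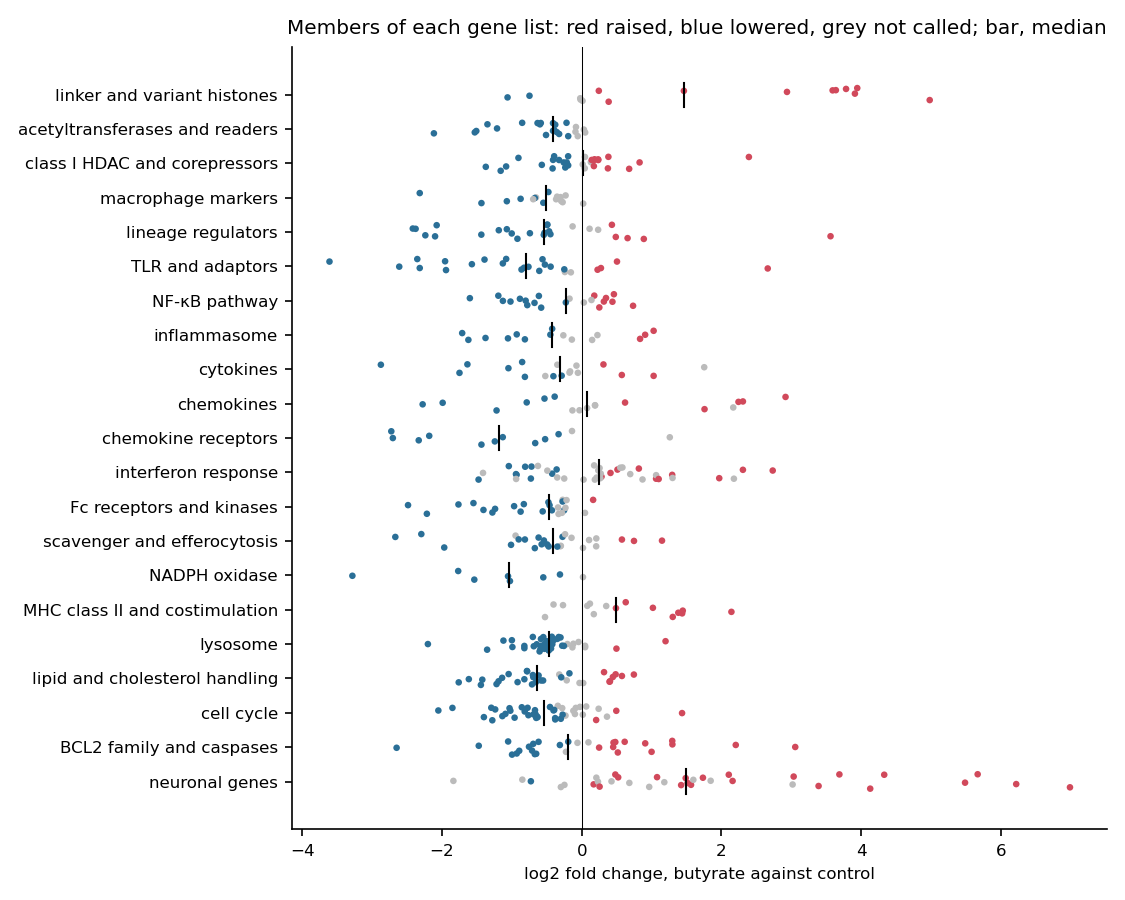
Log2 fold change with butyrate of the tested members of 21 gene lists in macrophages, a point per gene, red where raised, blue where lowered and grey where not called, with a bar at the median of each list. Linker and variant histones and neuronal genes lie mostly to the positive side, and chemokine receptors, Toll-like receptors and the NADPH oxidase to the negative side. Fold changes of genes near 0 counts are drawn as fitted.

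Genes that handle lipid fell more often than they rose, with 21 of 32 tested members lowered and 7 raised. The cholesterol exporter Abca1 was at 216, 215 and 208 CPM in the controls and 98.1, 102 and 90.1 CPM with butyrate (log2 fold change -1.14 ± 0.12 (SE), adjusted p = 5.2e-10), and the sterol sensor Nr1h3 (LXRα) fell from 12.0 to 4.43 CPM (-1.44 ± 0.13, adjusted p = 1.8e-11). Fasn, fatty acid synthase, fell from 162 to 70.9 CPM (-1.19 ± 0.18, adjusted p = 8.4e-07), Fabp5 from 536 to 199.8 CPM (-1.42 ± 0.09, adjusted p = 3.5e-14), and Plin2, which coats lipid droplets, from 721 to 309.5 CPM (-1.22 ± 0.18, adjusted p = 8.0e-07). Apoe was at 4189.8, 4317 and 4348 CPM in the controls and 2477, 2435 and 2550.3 CPM with butyrate (log2 fold change -0.78 ± 0.30 (SE), adjusted p = 0.025). Abcg1, which also exports cholesterol, was at 147 to 149 CPM and was not called, and the synthesis gene Sqle rose from 86.4 to 121 CPM (0.48 ± 0.08, adjusted p = 2.4e-06).

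Genes that take up, sense or use butyrate were 23 in the test, of which 9 rose and 4 fell, and with library totals alone as scale 14 rose and 2 fell. Acss2, which makes acetyl-CoA from acetate in cytosol and nucleus, was at 3.56, 3.33 and 4.33 CPM in the controls and 25.2, 23.0 and 23.3 CPM with butyrate (log2 fold change 2.66 ± 0.11 (SE), adjusted p = 1.5e-18). Slc16a1 and Slc16a3, the monocarboxylate transporters MCT1 and MCT4, rose by 1.17 and 0.63, and Slc16a7 (MCT2) fell from 34.8 to 17.4 CPM (adjusted p = 4.9e-07). Of the β-oxidation genes, Etfdh was at 43.1, 43.5 and 43.1 CPM in the controls and 91.7, 89.6 and 84.7 CPM with butyrate (log2 fold change 1.04 ± 0.06 (SE), adjusted p = 1.3e-15), Hadh rose from 42.2 to 76.3 CPM (0.86 ± 0.07, adjusted p = 2.8e-12), Acat1 from 27.3 to 45.8 CPM (0.75 ± 0.08, adjusted p = 2.7e-09), and Acads, which acts on butyryl-CoA, from 29.3 to 36.7 CPM (0.32 ± 0.06, adjusted p = 4.5e-05). Hcar2, the receptor for β-hydroxybutyrate and butyrate, was at 1.44, 1.46 and 1.77 CPM in the controls and 0.608, 0.663 and 0.296 CPM with butyrate (log2 fold change -1.56 ± 0.39 (SE), adjusted p = 8.7e-04). Ffar2, a receptor for short-chain fatty acids, was at or below 0.173 CPM in all 6 libraries. Acss3 was listed at 0 counts in the controls and at 0.598 CPM with butyrate.

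Cell cycle genes fell, with 28 of 42 tested members lowered and 3 raised and a median change of -0.54, or 22 lowered and 7 raised with library totals alone as scale. Rrm2, the inducible subunit of ribonucleotide reductase, was at 171, 169 and 168 CPM in the controls and 40.4, 40.9 and 41.3 CPM with butyrate (log2 fold change -2.05 ± 0.12 (SE), adjusted p = 3.4e-15). Cdc20, which drives exit from mitosis, fell from 43.7 to 12.1 CPM (-1.85 ± 0.19, adjusted p = 5.7e-10), Ccna2 from 165 to 62.6 CPM (-1.40 ± 0.19, adjusted p = 2.1e-07) and Plk1 from 58.1 to 23.9 CPM (-1.28 ± 0.17, adjusted p = 9.7e-08). Mki67, the proliferation marker Ki-67, was at 836, 839.8 and 854 CPM in the controls and 372, 357 and 302 CPM with butyrate (log2 fold change -1.29 ± 0.25 (SE), adjusted p = 4.1e-05). Ccnd3 rose from 33.1 to 89.7 CPM (1.44 ± 0.06, adjusted p = 3.4e-18) and the brake Rb1 from 73.1 to 103 CPM (0.49 ± 0.08, adjusted p = 3.7e-06). Pcna and Mcm6, replication genes, were at 336 to 339.6 CPM and 154 to 145 CPM and were not called.

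The CDK inhibitors did not share a direction, with 3 of 7 tested members raised and 2 lowered, or 5 and 2 with library totals alone as scale. Cdkn1a, the p21 gene, was at 188, 198 and 188 CPM in the controls and 194, 189.6 and 192 CPM with butyrate, and its 95% interval for the log2 change ran from -0.17 to 0.18. Cdkn2c fell from 64.8 to 26.8 CPM (-1.27 ± 0.12, adjusted p = 5.5e-11), Cdkn2d rose from 24.7 to 35.2 CPM (0.51 ± 0.09, adjusted p = 1.5e-05), and Cdkn1c rose from 1.85 to 4.63 CPM (1.32 ± 0.17, adjusted p = 8.5e-08).

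Of 29 tested genes of the BCL2 family and the caspases 12 rose and 14 fell. Genes that protect from apoptosis were found on both sides: Bcl2 was at 12.0, 10.6 and 12.1 CPM in the controls and 27.0, 30.8 and 27.4 CPM with butyrate (log2 fold change 1.30 ± 0.11 (SE), adjusted p = 4.8e-12), whereas Bcl2a1b, from a family of near copies, fell from 84.6 to 13.5 CPM (-2.65 ± 0.15, adjusted p = 1.1e-15), Mcl1 from 544 to 323 CPM (-0.76 ± 0.05, adjusted p = 3.6e-14) and Xiap from 147 to 70.8 CPM (-1.05 ± 0.09, adjusted p = 2.5e-11). The death-promoting genes Pmaip1 (Noxa) and Fas rose from 34.9 to 85.8 CPM (1.30 ± 0.08, adjusted p = 2.4e-15) and from 2.30 to 10.6 CPM (2.20 ± 0.13, adjusted p = 4.8e-15), and Bak1 and Bax fell from 114 to 40.9 CPM (-1.47 ± 0.07, adjusted p = 1.7e-17) and from 98.6 to 64.3 CPM (-0.62 ± 0.10, adjusted p = 3.4e-06). Casp8 fell from 57.2 to 30.0 CPM (-0.93 ± 0.11, adjusted p = 1.4e-08). Among 12 tested dual-specificity phosphatases of MAP kinases 5 rose, led by Dusp2 and Dusp5 (changes 1.31 and 1.15), and 6 fell, led by Dusp3 and Dusp4 (changes -2.25 and -1.15). The medians of both lists, -0.19 and -0.22, became 0.03 and 0.01 with library totals alone as scale, where 5 phosphatases rose and 3 fell.

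The direction of change varied with the level of the gene. With levels taken from the βOHB libraries, 3.07% of the 228 genes at 500 CPM or more rose and 63.6% fell, and among the 1862 genes from 100 to under 500 CPM 15.2% rose and 59.3% fell. In the 3178 genes under 1 CPM 37.5% rose and 2.99% fell. Some of these genes, such as Ankrd63 and B4galnt4, averaged under 1 CPM in the controls of all 4 cell types. Such genes passed the filter on low counts largely through butyrate libraries, which favoured a rise, and their number was not counted. The bins between ran in order, with 44.2% lowered from 20 to under 100 CPM, 34.8% from 5 to under 20 CPM and 23.4% from 1 to under 5 CPM. A level near 0 leaves little room for a measured decrease. With library totals alone as scale 11.0% of the genes at 500 CPM or more rose and 40.4% fell, so the size of this shift depended on the scaling.

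**Figure D4:**
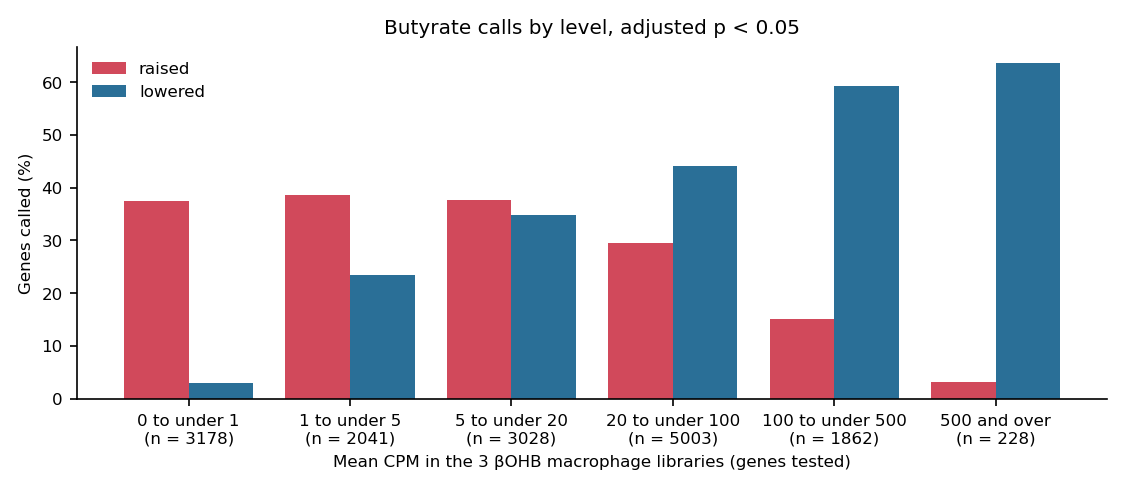
Share of tested genes raised (red) and lowered (blue) by butyrate in macrophages, in percent from 0, by the mean level of the gene in the 3 βOHB libraries in CPM. The lowered share grows from 2.99% in the lowest bin to 63.6% in the highest and the raised share lies between 37.5% and 38.6% in the 3 bins below 20 CPM and falls to 3.07% in the highest.

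Some genes appeared from near nothing. Among 37652 genes with fewer than 3 counts in every control library, 48 averaged at least 1 CPM with butyrate, all of them protein-coding. Of these 48, 0 reached 1 CPM with βOHB. Of these 43 passed the filter on low counts, and the rule that chose the genes fixed their direction. In the reverse direction 1 gene went from at least 1 CPM in the controls to fewer than 3 counts in every butyrate library. Slc2a4, the insulin-responsive glucose transporter GLUT4 of fat and muscle, had 2, 1 and 2 counts in the controls and 147, 145 and 146 counts with butyrate, a mean of 6.07 CPM. Ankrd63 and B4galnt4 had 0 counts in all controls and 79, 91 and 68 counts and 58, 66 and 67 counts with butyrate, which is at least 24.2-fold and at least 19.4-fold higher than a floor of 3 counts per control library. Ocln, the tight junction protein occludin, went from 1, 0 and 2 counts to 61, 62 and 63 counts, and Kcnh3, a potassium channel, from 0, 2 and 0 counts to 104, 106 and 102 counts. Of the 48 genes 7 were at 10 CPM or more in the controls of another cell type, Slc2a4 (89.4 CPM in adipocytes) and Ocln (42.7 CPM in hepatocytes) among them.

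Genes known from neurons, many of them targets of the repressor REST, were examined as a list of 50, of which 35 could be tested. Of these 21 rose, 17 of them by at least 2-fold, and 1 fell, beside backgrounds of 31.9% raised and 12.7% raised by at least 2-fold. Most members are low, and among all tested genes under 1 CPM and from 1 to under 5 CPM in the βOHB libraries the shares raised were 37.5% and 38.6% and the shares raised by at least 2-fold 34.8% and 22.6%. The bin under 1 CPM includes genes that passed the filter on low counts largely through butyrate libraries. Without the filter on low counts 21 of all 50 members rose and 2 fell, and without the butyrate library numbered 1, with the filter, 2 fell. Syn1, a synaptic vesicle protein, was at 3.77, 3.93 and 3.94 CPM in the controls and 16.4, 17.2 and 16.5 CPM with butyrate (log2 fold change 2.10 ± 0.15 (SE), adjusted p = 3.0e-13). Unc13a, which primes vesicles for release, rose from 3.86 to 12.9 CPM (1.73 ± 0.15, adjusted p = 8.4e-12), Celf4 from 2.77 to 8.22 CPM (1.56 ± 0.13, adjusted p = 1.1e-11) and Rab3a from 3.99 to 10.7 CPM (1.42 ± 0.10, adjusted p = 1.4e-13). Mapt, the tau gene, went from 1, 0 and 1 counts to 74, 55 and 63 counts, and Dpysl5 from 2, 0 and 0 counts to 96, 121 and 112 counts. Rest itself fell from 66.6 to 50.1 CPM (-0.41 ± 0.08, adjusted p = 2.6e-05). Dpysl3, the member that fell, was at 126, 116 and 113 CPM in the controls and 65.3, 76.0 and 72.8 CPM with butyrate (log2 fold change -0.73 ± 0.15 (SE), adjusted p = 7.1e-05). Levels of the raised members were low, most of them under 20 CPM with butyrate, and Tubb3, a neuronal tubulin, was at 11.4 to 13.2 CPM and was not called.

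Whether the response was shared with other cells was tested as the difference between the change in macrophages and the mean change in adipocytes, myotubes and hepatocytes. It was higher in macrophages for 19.0% and lower for 20.8% of the tested genes. Of the 9972 genes called in macrophages, 3856 were called in the same direction in all 4 cell types, and 152 were called in the opposite direction in each of the other 3 with a called difference, 43 of them raised and 109 lowered in macrophages. Gprc5c, an orphan receptor, was at 2.03, 1.86 and 2.08 CPM in the controls and 22.4, 21.1 and 22.0 CPM with butyrate. In the other cell types its changes were -0.57 in adipocytes, -2.08 in myotubes and -1.22 in hepatocytes (difference 4.74 ± 0.14, adjusted p = 8.2e-21). Gas2l3, a cytoskeletal linker, was at 151, 148 and 148 CPM in the controls and 75.7, 68.0 and 64.8 CPM with butyrate, while its changes elsewhere were 1.63, 2.22 and 2.04 (difference -3.06 ± 0.13, adjusted p = 1.2e-17).

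H1f2 rose in all 4 cell types but more in macrophages, with changes of 2.91, 1.76 and 1.69 in adipocytes, myotubes and hepatocytes (difference 1.82 ± 0.12, adjusted p = 5.0e-13). Its level before treatment was also lower in macrophages than in adipocytes, whose libraries went from 216 to 1617 CPM. Mt2 and Ddah2 had differences of 1.99 ± 0.16, adjusted p = 3.8e-11 and of 1.97 ± 0.11, adjusted p = 5.6e-15. Jup, plakoglobin of cell junctions, was at 16.7, 16.5 and 15.1 CPM in the controls and 69.9, 82.1 and 80.5 CPM with butyrate in macrophages and had changes of 1.45, -0.34 and -1.23 elsewhere (difference 2.31 ± 0.09, adjusted p = 5.8e-18). The junction gene F11r was at 14.3, 11.2 and 11.9 CPM in the controls and 76.4, 73.5 and 80.6 CPM with butyrate (difference 1.85 ± 0.13, adjusted p = 1.3e-12), and Mcam rose from 14.1 to 70.0 CPM (difference 2.17 ± 0.13, adjusted p = 6.7e-14).

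Arhgap19 and Hpgd fell in macrophages. Elsewhere Arhgap19 was called raised, with changes of 1.07, 0.54 and 2.08 in adipocytes, myotubes and hepatocytes. Hpgd had values near 0 or above there. Arhgap19, a GTPase activating gene, was at 164, 164 and 164 CPM in the controls and 54.6, 51.2 and 49.3 CPM with butyrate (difference -2.90 ± 0.13, adjusted p = 1.9e-16). Hpgd, which breaks down prostaglandins, was at 28.7, 24.9 and 29.0 CPM in the controls and 4.95, 4.95 and 3.42 CPM with butyrate (difference -3.43 ± 0.23, adjusted p = 3.0e-13). Adra1a fell in macrophages while its changes elsewhere were -0.57, 0.38 and 2.15 (difference -3.56 ± 0.24, adjusted p = 4.2e-13). Aph1c, Rassf2, Nptx1 and Trpv2 fell in macrophages and had positive changes in the other 3 cell types. For several named genes the comparison rested on low levels outside macrophages: Tifab, Tbxas1 and Fcgr1, which fell less in macrophages than on average elsewhere, went from 2.53 to 0.0284 CPM, 1.80 to 0.0554 CPM and 2.37 to 0.184 CPM in myotubes, and Rhov was at 0.172 and 0.532 CPM in control and butyrate adipocytes. Macrophage marker sums of 392 to 551 CPM in the other cultures are the levels beside these 3 genes, and the part of macrophages in those cultures was not tested.

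**Figure D5:**
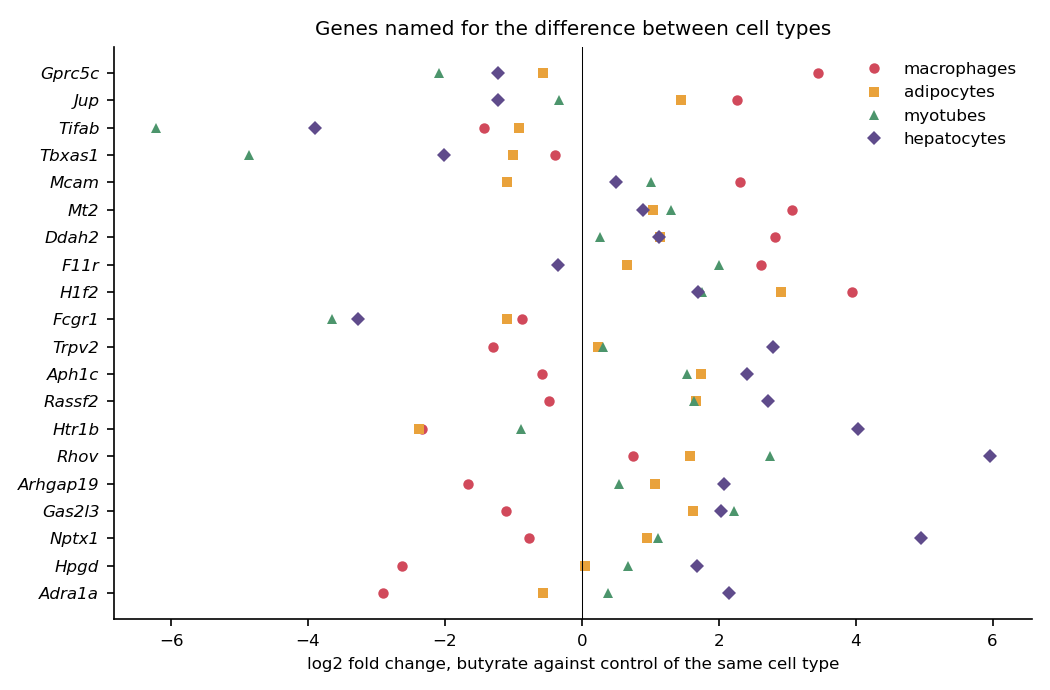
Log2 fold change with butyrate relative to PBS in the same cells for the 20 genes named for their difference, with red circles for macrophages, orange squares for adipocytes, green triangles for myotubes and purple diamonds for hepatocytes. The macrophage point lies right of the mean of the other 3 in the upper 10 genes and left of it in the lower 10.

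βOHB carries a hydroxyl group on the β carbon of butyrate and was given at the same dose and time, so the compounds were compared directly, as a single pair. Butyrate libraries were higher for 31.8% and lower for 32.8% of the tested genes than βOHB libraries. H1f0 was at 42.4, 45.2 and 41.1 CPM with βOHB, within or near the range of the controls, and the difference of butyrate from βOHB was 3.92 (95% interval 3.78 to 4.05, adjusted p = 9.8e-28). Spi1 was at 240.4, 249 and 224 CPM with βOHB, and the difference was -2.12 (95% interval -2.45 to -1.79, adjusted p = 3.1e-12). Tlr7 differed by -3.68 (95% interval -4.02 to -3.34, adjusted p = 1.9e-17), Cd40 by 2.73 (95% interval 2.29 to 3.16, adjusted p = 4.7e-12) and Igf1 by -1.81 (95% interval -2.00 to -1.61, adjusted p = 4.8e-16). For each of these 5 genes the 3 butyrate libraries lay apart from the 3 βOHB libraries, as the plot of levels by library shows.

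For some genes the difference between the compounds did not pass the test, whose spread is that of all 36 libraries. The difference was -0.60 (95% interval -1.22 to 0.02, adjusted p = 0.098) for Lyz2, -0.31 (95% interval -0.85 to 0.23, adjusted p = 0.34) for C1qb, 0.11 (95% interval -0.02 to 0.24, adjusted p = 0.16) for Hdac2 and -0.03 (95% interval -0.21 to 0.14, adjusted p = 0.77) for Cdkn1a. With library totals alone as scale the difference of Cdkn1a was 0.19 (adjusted p = 0.048). The intervals of Hdac2 and Cdkn1a exclude a 2-fold difference in either direction, that of C1qb does as well, and that of Lyz2 reaches past a 2-fold lower level. Butyrate minus βOHB and butyrate minus control share the butyrate libraries, so the values are given side by side and not as separate support.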

How the data were processed

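RNA of 36 libraries (4 cell types by 3 treatments, 3 libraries each) was sequenced by the authors on a BGISEQ-500 as paired reads. The deposited values are estimated counts per gene, which the authors made with Salmon 1.2.1 against the transcripts of GENCODE M25 and summarised per gene in tximport. The methods describe a scaling by transcript length and library size. Of the deposited values above 0, 55.6% are exactly whole, and totals differ between libraries, and whether the values carry that scaling was not settled. The strand setting is not given in the sources used here. Gene positions came from GENCODE M21, in which 54094 of the 54347 genes were found, and promoter windows from RefSeq (GRCm38.p6).

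Counts, rounded to whole numbers, entered edgeR 4.0.16 (R 4.3.3; TMM, quasi-likelihood F test, Benjamini-Hochberg adjustment). The filter kept the 15340 genes that passed 1 CPM in 6 or more of all 36 libraries. Comparisons were butyrate against control in macrophages, the same minus the mean of the other 3 cell types, and butyrate minus βOHB; intervals are 95% normal intervals, and intervals and floors of 3 counts cover counting error only where they rest on counts. On data simulated for the first comparison with 200 changed genes among 15340, the test recovered 99% of 2-fold and 91% of 1.4-fold changes, with 8 false calls. The changed genes were drawn from those above 5 CPM in macrophage controls, as many raised as lowered, and all other genes were left unchanged. In the data 65.0% of genes were called and the scaling factors shifted. These rates therefore do not carry over to the comparison itself or to genes of low level. Groups of 3 were not tested for outliers, and exact permutation of 3 against 3 libraries reaches no p under 0.1, so every p here comes from the fit across genes.

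Named genes were the 12 raised and 12 lowered of largest change at 20 CPM or more without overlap, up to 3 in each direction per list at 5 CPM or more, a fixed set, the 10 of largest difference in each direction to the other cell types at 20 CPM or more in the higher macrophage group, and the 10 highest with butyrate among genes under 3 counts in every control. Further list members were named after their values were seen. Some genes that these rules name are not reported here. Members and lists were chosen with earlier results of these data known. Set tests were not run, and promoters were not compared between lists, because fewer than 80% of genes matched the promoter table. Alternatives were limma-voom (limma 3.58.1), DESeq2 1.42.0, other filters and scalings, the macrophage libraries alone, the replicate number as a block and each library left out.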

Additional observations from a re-analysis of the deposited data

Results flagged for a closer look

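The change with butyrate in macrophages differed from the mean change in the other 3 cell types for 6117 of 15340 genes, by a test of the difference itself in edgeR at an adjusted p under 0.05, and the 20 genes named for that difference are given with the log2 difference, macrophages minus the mean of the others. It was 4.74 for Gprc5c, 2.31 for Jup, 2.25 for Tifab, 2.23 for Tbxas1, 2.17 for Mcam, 1.99 for Mt2, 1.97 for Ddah2, 1.85 for F11r, 1.82 for H1f2 (Hist1h1c in the table) and 1.80 for Fcgr1. It was -3.56 for Adra1a, -3.43 for Hpgd, -3.11 for Nptx1, -3.06 for Gas2l3, -2.90 for Arhgap19, -2.68 for Rhov, -2.60 for Htr1b, -2.48 for Rassf2, -2.48 for Aph1c and -2.41 for Trpv2. Htr1b fell in macrophages from 27.2 to 5.37 CPM and was at 0 and 0.0884 CPM in control and butyrate hepatocytes, where its fitted change was 4.03.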

How the results depend on the processing

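The response of macrophages kept its direction counts within 1.5 times under limma-voom (10062 genes called), DESeq2 (9908), RLE factors, other filters, and the 9 macrophage libraries alone (10615, 5372 raised and 5243 lowered). With library totals alone as scale 3339 genes fell, 787 of them by at least 2-fold, and butyrate was below βOHB for 3293 genes, where the median change of all tested genes was 0.20 in place of 0. Under that scale the change of Postn was 0.005 (adjusted p = 0.99), and butyrate minus βOHB was 0.053 for Etfa and 0.19 for Cdkn1a (adjusted p = 0.048), each turned from negative. Further moves under it were 3.65% lowered of adipocyte-enriched, 2.35% lowered of hepatocyte-enriched and 3.55% lowered of myotube-enriched genes, 45.6% raised and 28.0% lowered from 20 CPM, 30.9% raised and 38.9% lowered from 100 CPM, and 11.0% raised and 40.4% lowered from 500 CPM. With the 9 macrophage libraries alone 9.63% of adipocyte-enriched genes fell and 5.70% of genes from 500 CPM rose. At 64 in place of 16 times the level, 4.11% of adipocyte-enriched genes fell, 15.9% of hepatocyte-enriched genes rose and 1.63% fell, 0% of the 11 macrophage-enriched genes rose and 1.94% of myotube-enriched genes fell. These alternatives for bins and enriched genes, other than the 64 times, were added after seeing the data. The cause of these moves was not tested.

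Leaving out each macrophage library in turn gave 9336 to 9956 called genes (4559 to 4880 raised, 4573 to 5076 lowered, 1871 to 2000 raised and 1191 to 1273 lowered by at least 2-fold), 5496 to 6090 genes that differed from the other cell types (2613 to 2898 higher, 2880 to 3192 lower) and 9291 to 9875 that differed between the compounds (4533 to 4865 higher, 4603 to 5015 lower). Leaving out each control or butyrate library gave 3.32% to 6.98% lowered of adipocyte-enriched and 3.75% to 6.11% lowered of myotube-enriched genes, the lowest without butyrate replicate 1 and without control replicate 1. The deviations of equally numbered control and butyrate libraries correlated at -0.005, -0.020 and 0.006, which shows no pairing by replicate number. For βOHB and butyrate libraries they correlated at 0.010, 0.030 and 0.085, beside -0.059 to 0.030 for unequal numbers. The labels do not say whether libraries were paired, and this was not settled. With the replicate block 9933 genes were called, 6042 differed from the other cell types and 9877 between the compounds. Depth limits genes under a few CPM, where an increase is easier to see than a decrease.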

Other observations

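Lists of other blood and bone lineages were mostly below the filter in these cultures. Of 8 B cell markers 3 could be tested and all 3 fell: Ebf1 from 16.9 to 11.8 CPM (change -0.51, adjusted p = 0.0095), Cd22 from 9.35 to 4.42 CPM (-1.08, adjusted p = 7.8e-06), and Ighm, at 6.19, 3.78 and 5.41 CPM in the controls and 2.13, 0.312 and 0.338 CPM with butyrate, by -2.50 (adjusted p = 1.3e-06). Of 4 tested erythroid and megakaryocyte markers 3 rose, among them Itga2b from 0.122 to 0.912 CPM and the erythropoietin receptor gene Epor from 0.169 to 1.46 CPM. Of 4 tested monocyte and neutrophil markers 3 fell (Ly6c2, Ccr2 and Csf3r), and Prtn3, proteinase 3 of granules, rose from 0.146 to 3.55 CPM (4.51, adjusted p = 1.5e-13). Of 3 tested dendritic cell markers Zbtb46 rose from 1.20 to 4.58 CPM and Fscn1 fell from 107 to 74.4 CPM. Of 2 tested mast cell markers Gata2 rose from 1.31 to 3.70 CPM. The 1 tested T cell gene, Cd3g, had 0 counts in all 6 libraries.

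Of 6 tested osteoclast markers 1 rose (Ocstamp, from 0.162 to 1.04 CPM) and 2 fell (Ctsk, from 18.9 to 7.38 CPM, and Tnfrsf11a, from 49.6 to 33.4 CPM). Of 9 tested stromal markers 2 rose (Thy1, from 1.07 to 6.09 CPM, and Lum, listed at 0 in the controls and at 0.0687 CPM with butyrate) and 2 fell (Pdgfrb and Postn), and of 7 endothelial markers 3 fell, with Vwf at 93.8, 87.5 and 90.6 CPM in the controls and 40.5, 42.4 and 35.3 CPM with butyrate (log2 fold change -1.20 ± 0.11 (SE), adjusted p = 1.2e-10). Leaving out 1 library changed these counts: a single endothelial marker fell without the control library numbered 1, and 1 rose without the butyrate library numbered 1. A single stromal marker rose without the butyrate library numbered 2 or 3 or without any 1 of the control libraries, and 1 fell without the butyrate library numbered 1 or the control library numbered 1 or 3. The number of osteoclast markers that rose was 2 without the butyrate library numbered 1 or 3 or the βOHB library numbered 2 or 3, and under DESeq2, limma-voom and RLE factors. With library totals alone as scale 2 endothelial markers rose and 3 fell, 2 osteoclast markers rose and 2 fell, and 2 stromal markers rose and 1 fell. None of the 7 adipocyte and none of the 7 hepatocyte markers was called at an adjusted p under 0.05 in edgeR over all 36 libraries with the filter, while the fit of the 9 macrophage libraries alone called 1 of each lowered (Fabp4 and Alb). The adipocyte marker with a level above 1 CPM, Fabp4, was at 85.6 to 73.8 CPM.

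By gene type, 32.7% of 14152 protein-coding genes rose and 34.4% fell, against 25.4% and 16.8% of 291 lincRNA genes and 2.94% and 17.6% of 136 processed pseudogenes, whose reads may belong to their parent genes.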
